A study of Mus musculus with 6 samples.

Results

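The proteasome is the protease that degrades ubiquitin-tagged proteins, and its subunits are the subject here. They were taken as the protein-coding rows of the deposited table whose symbol is Psma, Psmb, Psmc, Psmd or Psme followed by a number. The interferon-inducible Psmb8 and Psmb9 were left out of that rule. It found 41 of the 54532 genes in the table, made up of 17 genes of the 20S core particle, 17 of the 19S regulatory particle, 3 base assembly chaperones and 4 alternative activators. Expression was measured by RNA-seq in brain endothelial cells sorted as live, CD31-positive, CD45-negative and PDGFRb-negative from Df(h22q11)/+ mice, which carry 1 copy of the interval orthologous to human 22q11.2. All 6 libraries carry this deletion, so the comparison is between diets within the mutant, and wild-type mice were not analysed here. The untreated group (libraries F_1 and F_2 from females and M_1 from males) ate irradiated base chow, and the bezafibrate group (F_1 from females, M_1 and M_2 from males) ate chow with 0.5% bezafibrate, a lipid-lowering agonist of PPAR receptors. Both diets were given for 4 weeks to mice aged 12 to 16 weeks, and each library was a pool of 3 brains matched for sex and diet.

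The 26S proteasome consists of a barrel-shaped core, in which the beta ring holds the proteolytic sites and the alpha ring forms the gate, capped by a regulatory particle that recognises ubiquitin, unfolds the substrate with a ring of ATPases and removes the ubiquitin chain. In most cells the subunit genes are expressed in step, and when proteasome activity falls short the transcription factor NRF1, encoded by Nfe2l1, raises them as a set through antioxidant response elements. Brain endothelial cells use the same machinery to turn over damaged, misfolded and short-lived proteins, including junction and signalling proteins.

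The libraries held 16858130 to 20228619 reads recovered from the deposited FPKM, and 11060 to 11387 genes at 1 FPKM or more. FPKM are fragments per kilobase of gene length, scaled by a size per library that differed from its recovered reads. Reads divided by the size used for scaling, called the composition ratio here, ran from 0.888 in bezafibrate M_1 to 1.09 in untreated M_1. Untreated M_1 and bezafibrate F_1 had stood apart from the other libraries in an earlier analysis of these data. The 5 endothelial markers summed to 2213 to 2749 FPKM in untreated and 1842 to 2532 in bezafibrate libraries. Leukocyte Ptprc was at most 0.0349 FPKM and the 3 neuron markers summed to at most 0.667. The sort was not free of other cells: the 4 choroid plexus markers summed to 356 to 395 FPKM in untreated and 404 to 932 in bezafibrate libraries, without overlap. Nearly all of each sum was Ttr, at 349 to 389 and 397 to 919 FPKM. Clic6 did not overlap either (1.73 to 2.12 and 2.51 to 4.72). Kl (1.98 to 2.51 and 2.19 to 4.27) and Folr1 (1.90 to 2.47 and 2.06 to 3.85) overlapped between the diets. The 4 pericyte markers summed to 176 to 312 and 167 to 241 FPKM, the 3 smooth muscle markers to 53.9 to 76.4 and 65.7 to 90.6, the 4 oligodendrocyte markers to 65.3 to 104 and 60.9 to 65.9, the 4 astrocyte markers to 15.9 to 25.2 and 10.6 to 21.9, the 4 microglia markers to 3.42 to 4.54 and 2.18 to 4.30 and the 3 globin genes to 42.5 to 278 and 50.3 to 137. In bulk RNA, fewer cells of a type and less RNA per cell cannot be told apart, and the part of these transcripts in the values below was not tested.

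Proteasome mRNAs did not differ detectably between the diets. Of the 41 genes, 40 had at least 1 FPKM in at least 3 libraries and were tested among the 11277 genes that passed this filter. By limma on log2(FPKM + 1), 0 of the 40 were called at an adjusted p under 0.05, against 1 of all genes tested (0.00887%). The smallest adjusted p among the 40 was 0.999 in limma, and 0 of 40 had an unadjusted p under 0.05, against 4.19% of all genes. With limma-voom on recovered reads 0 were called and 1 had an unadjusted p under 0.05, and with array weights 0 and 2. The 3 bezafibrate values were all above the 3 untreated ones for 1 of 40 genes, Psmc5 (4.29% of all genes tested), and all below them for 2 of 40, Psma7 and Psmd7 (4.13%), together 3 of 40 against 8.42%. The median difference was 0.01 (log2, bezafibrate minus untreated), with 23 genes above 0 and 17 below, beside -0.0091 over all genes tested. When the libraries were rescaled to TPM, the median of all genes moved to 0.10 and that of the proteasome genes to 0.13, with 33 above 0 and 7 below. Relative to the median of all genes, 15 proteasome genes were below it under either scaling.

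The intervals bound how large a difference the data leave room for. For 37 of 40 proteasome genes (92.5%) the 95% interval of the difference lay within 1.5-fold either way, against 48.1% of all genes tested and 58.2% of those with a mean FPKM of at least 5. The exceptions were Psme4, whose interval reached down to -0.59, and Psmd5 and Psma8, whose intervals reached up to 0.64 and 0.60 (log2). All 40 differences in this fit lay within 0.3 of 0, as did 82.2% of all genes. In TPM 36 of 40 did, against 72.4% of all genes, with Psmd5 (0.44), Psma8 (0.37), Psmd6 (0.34) and Psme3 (0.32) outside. With limma-voom 35 of 40 did, against 69.8%, and Psmd5 stood at 0.47. The intervals of 32 of 40 lay within 1.5-fold in TPM and of 30 with limma-voom, against 28.8% of all genes in each. With sex as a covariate 32 did, against 37.4%. The values also varied less between replicates than those of most genes: the residual SD was below the median of all genes tested for 36 of 40, with a median of 0.15 against 0.23 (log2). These genes were also abundant, with a median level at the 80.3rd percentile of the genes tested.

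**Figure D1:**
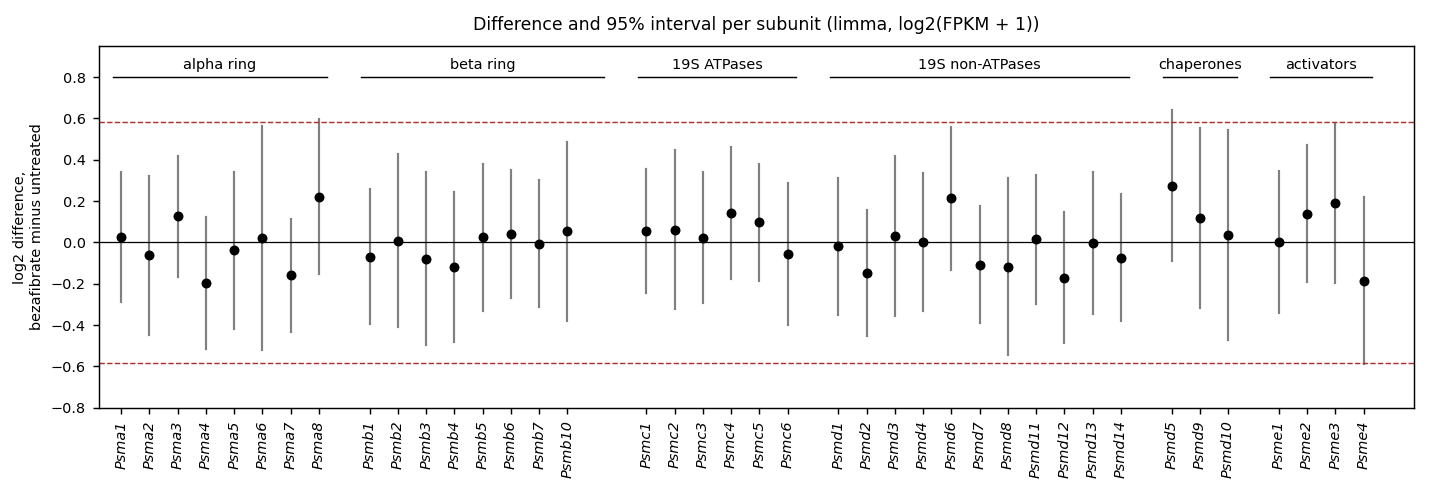
Each point is the limma log2 difference (bezafibrate minus untreated, log2(FPKM + 1)) of 1 proteasome gene with its 95% interval, ordered by particle, and the dashed lines mark 1.5-fold either way. All 40 points lie within 0.3 of 0 and every interval crosses 0, with Psmd5, Psma8 and Psme4 reaching past a dashed line.

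Promoters of the subunit genes were read from RefSeq (GRCm38.p6), which held windows of 300 bases, from 250 before to 50 after the start site, for 34 of the 41 genes (37 windows). The core of the antioxidant response element (TGACNNNGC, either strand) was present in 6 of the 37 windows (16.2%), against 12.4% of all 32851 windows. The ETS-type motif CCGGAAG was present in 13 of the 37 (35.1%), in 12 genes, against 8.86% of all windows, and its shorter form CGGAAG, which it contains, in 56.8% against 16.9%. The other patterns searched in part overlap these. They were TGANNNNGC (56.8% against 41.3%), TGACTNNGC (2.70% against 3.74%), CCAAT (35.1% against 37.4%) and TGACGT (10.8% against 7.51%). Also searched were the extended GC box (10.8% against 7.01%) and TATAAA (8.11% against 13.6%). The full Maf recognition element was not searched, only a part of it (0 of 37 against 0.155%). A match is a run of letters and not a measured binding site. Every pattern was searched on either strand. Shown first are the upstream windows of 2 catalytic core subunits that hold TGACNNNGC. Those of an ATPase and a lid subunit that hold CCGGAAG follow, in Psmc1 as its reverse complement CTTCCGG. All windows are in the gene's own direction with the match in capitals. They lie at chr14:54617996-54618245 (minus strand), chr11:70525107-70525356 (plus), chr12:100109952-100110183 (plus) and chr14:14120955-14121195 (minus), and end at the start site or within 30 bases of entering the gene as the deposited table places it. The matches begin 47, 9, 28 and 45 bases before the RefSeq start site, respectively.
Psmb5: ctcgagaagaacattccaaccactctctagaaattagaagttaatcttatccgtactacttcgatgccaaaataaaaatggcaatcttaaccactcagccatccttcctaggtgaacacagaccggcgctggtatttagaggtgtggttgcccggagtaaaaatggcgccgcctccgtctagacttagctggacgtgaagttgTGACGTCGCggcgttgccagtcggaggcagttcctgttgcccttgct
Psmb6: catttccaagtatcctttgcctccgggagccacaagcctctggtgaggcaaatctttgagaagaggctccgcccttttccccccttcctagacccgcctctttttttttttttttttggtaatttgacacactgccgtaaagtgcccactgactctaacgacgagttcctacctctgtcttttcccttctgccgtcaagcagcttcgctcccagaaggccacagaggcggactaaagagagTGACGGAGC
Psmc1: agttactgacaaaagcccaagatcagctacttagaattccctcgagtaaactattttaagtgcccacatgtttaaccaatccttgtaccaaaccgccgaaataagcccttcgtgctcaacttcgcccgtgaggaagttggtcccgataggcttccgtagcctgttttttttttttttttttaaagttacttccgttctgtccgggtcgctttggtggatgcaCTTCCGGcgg
Psmd6: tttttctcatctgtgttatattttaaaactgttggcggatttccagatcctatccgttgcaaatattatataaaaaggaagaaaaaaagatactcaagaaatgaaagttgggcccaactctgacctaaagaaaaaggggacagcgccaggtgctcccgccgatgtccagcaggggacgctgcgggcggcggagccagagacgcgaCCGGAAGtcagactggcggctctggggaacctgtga
Among these, Psmb5, Psmb6 and Psmc1 differed by 0.02, 0.04 and 0.05 between the diets (log2), and Psmd6 by 0.21 with an SE of 0.15.

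The 8 alpha ring genes, whose products gate entry to the core, had differences from -0.20 to 0.22 with a median of -0.0089, 4 above and 4 below 0. Psma6 was the most abundant proteasome mRNA. With the libraries in the order given above, it stood at 58.2, 76.1 and 84.3 FPKM in untreated and 77.8, 53.8 and 92.9 in bezafibrate libraries. Its lowest and its highest library were both bezafibrate males, and the difference was 0.02 (SE 0.23). Psma7 was 28.0, 26.8 and 26.5 FPKM in untreated and 24.5, 24.2 and 23.8 in bezafibrate libraries. The Psma7 groups did not overlap, yet the shift was small, from 27.1 ± 0.837 to 24.1 ± 0.318 (SD, n = 3 each), a difference of -0.16 (SE 0.12). Rescaled to TPM the Psma7 difference was -0.047, and with limma-voom it was -0.055. Psma4 had the lowest difference of the ring, -0.20 (SE 0.14). Its 3 untreated values were close together at 19.1, 18.7 and 19.7 FPKM, and the bezafibrate values were 16.1, 14.9 and 19.1. Bezafibrate F_1 and M_1 were below every untreated library and bezafibrate M_2 was not.

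Psma8 encodes the germline form of an alpha subunit, best known from the testis. It was read at 2.50, 3.45 and 3.59 FPKM in untreated and 3.58, 3.92 and 4.02 in bezafibrate libraries, from 680 reads in all. Untreated F_1 was the lowest and the groups met at untreated M_1 and bezafibrate F_1, with a difference of 0.22 (SE 0.16). Without untreated F_1 the Psma8 difference was 0.097. Psmb11, the thymus-specific beta subunit, failed the filter: its 6 values were 0.135, 0.0586 and 0 in untreated and 0, 0.0883 and 0.0111 FPKM in bezafibrate libraries. Those values rest on 28 reads in all, so that no difference was detectable at this depth.

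The beta ring carries the proteolytic sites. Its 8 tested genes had differences from -0.12 to 0.05 with a median of 0.0015, 4 above and 4 below 0. Psmb5, which holds the chymotrypsin-like site, stood at 40.5, 31.8 and 36.2 FPKM in untreated and 42.0, 34.1 and 34.5 in bezafibrate libraries. Psmb6, which holds the caspase-like site, was 33.9, 32.0 and 30.7 FPKM in untreated and 35.9, 29.6 and 34.2 in bezafibrate libraries. Psmb7, which holds the trypsin-like site, was 12.9, 13.6 and 14.5 FPKM in untreated and 14.9, 12.5 and 13.4 in bezafibrate libraries. The groups overlapped for all 3, with bezafibrate F_1 highest each time, and the differences were 0.02 (SE 0.15), 0.04 (SE 0.13) and -0.0053 (SE 0.13). The 95% intervals of these 3 ran from -0.33 at the lowest to 0.38 at the highest (log2).

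Psmb4, a structural beta subunit and the most abundant of its ring, had 53.0, 49.2 and 61.9 FPKM in untreated and 50.1, 43.9 and 56.9 in bezafibrate libraries. Its difference of -0.12 (SE 0.16) was the lowest of the ring. It was -0.027 without bezafibrate M_1, -0.028 without untreated M_1 and -0.0034 in TPM. Psmb10 replaces Psmb7 in the interferon-induced immunoproteasome. It stood at 39.2, 32.4 and 28.6 FPKM in untreated and 27.6, 37.8 and 39.0 in bezafibrate libraries. Untreated M_1 and bezafibrate F_1 were the low libraries, and the difference was 0.05 (SE 0.19), the highest of the ring. The other interferon-inducible subunits, which are not counted among the 41 genes, overlapped between the diets too. Psmb8 averaged 11.4 ± 0.782 FPKM without and 11.1 ± 1.34 FPKM with bezafibrate (SD, n = 3 each). Psmb9 was 7.75, 5.35 and 5.11 FPKM in untreated and 3.83, 6.18 and 7.56 in bezafibrate libraries.

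**Figure D2:**
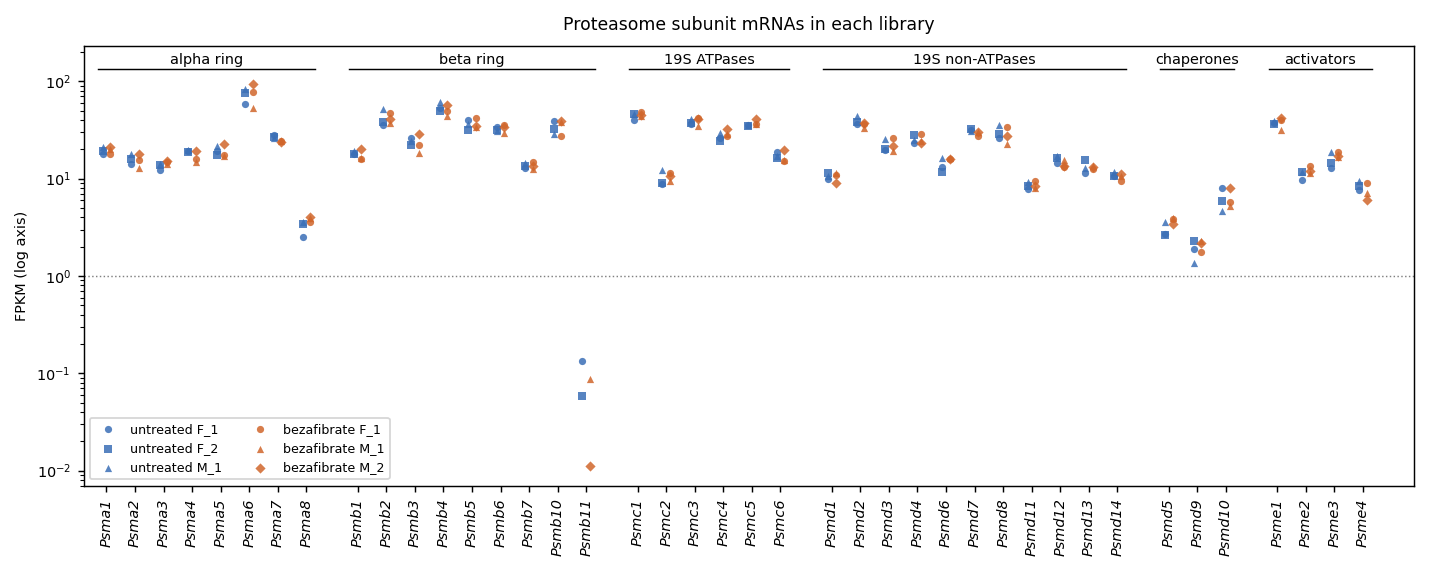
FPKM of each proteasome gene (log axis) in each of the 6 libraries, untreated in blue and bezafibrate in orange, with circles for F_1, triangles for M_1 and squares and diamonds for the third library of the untreated (F_2) and bezafibrate (M_2) group. Levels run from Psmd9 (mean 1.97 FPKM) to Psma6 (73.9), the 2 colours overlap for 37 of 40 genes, and Psmb11, under the dotted filter line at 1, is not drawn in the 2 libraries where it was 0.

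The 19S ATPases form the ring that unfolds substrates. Their 6 differences ran from -0.06 to 0.14 with a median of 0.06, and 5 were above 0. Psmc1, the most abundant, had 39.9, 46.3 and 46.4 FPKM in untreated and 48.0, 44.5 and 45.0 in bezafibrate libraries. Untreated F_1 was the lowest and the other 5 libraries lay close together, with a difference of 0.05 (SE 0.13). Psmc5 was the proteasome gene without overlap whose bezafibrate values were the higher ones. It stood at 35.6, 35.2 and 35.3 FPKM in untreated and 36.4, 36.7 and 40.7 in bezafibrate libraries. The untreated values were nearly equal, bezafibrate M_2 accounted for most of the shift, and the difference was 0.10 (SE 0.12).

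Psmc4 had the highest difference of the ATPases, 0.14 (SE 0.14). Its values were 26.5, 24.5 and 29.2 FPKM in untreated and 27.4, 28.6 and 32.7 in bezafibrate libraries, so the groups overlapped. Psmc6 had the lowest, -0.06 (SE 0.15). It stood at 18.8, 16.3 and 17.2 FPKM in untreated and 15.1, 15.6 and 19.7 in bezafibrate libraries, with bezafibrate M_2 above and the other bezafibrate libraries below every untreated value. Psmc2 was the least abundant ATPase, with 8.72, 9.13 and 12.4 FPKM in untreated and 11.4, 9.49 and 10.6 in bezafibrate libraries. Untreated M_1 and bezafibrate F_1 were its high libraries, and the difference was 0.06 (SE 0.17).

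The 11 non-ATPase subunits form the lid and the scaffold of the base and include the ubiquitin receptors. Their differences ran from -0.17 to 0.21 with a median of -0.02, 4 above and 7 below 0. Psmd2, a base scaffold that docks ubiquitin-binding proteins and the most abundant of this list, had 36.6, 38.4 and 43.6 FPKM in untreated and 36.1, 33.5 and 37.0 in bezafibrate libraries. The groups overlapped narrowly, and the difference was -0.15 (SE 0.13). Psmd7 is the lid partner of the deubiquitinase Psmd14. It was 31.7, 32.4 and 30.8 FPKM in untreated and 27.5, 30.1 and 30.4 in bezafibrate libraries. The bezafibrate values were all lower, but by little, from 31.6 ± 0.787 to 29.3 ± 1.61 (SD, n = 3 each), a difference of -0.11 (SE 0.12). After rescaling to TPM the Psmd7 difference was 0.0066, on the other side of 0.

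Psmd6, a lid subunit, had the highest difference of the regulatory particle, 0.21 (SE 0.15). It stood at 13.1, 11.8 and 16.3 FPKM in untreated and 15.9, 16.1 and 15.8 in bezafibrate libraries. The bezafibrate values were nearly equal and untreated M_1 was above them. Psmd12, another lid subunit, had the lowest, -0.17 (SE 0.14). Its values were 14.6, 16.4 and 17.0 FPKM in untreated and 13.3, 15.6 and 13.4 in bezafibrate libraries, and only bezafibrate M_1 fell within the untreated range. Psmd11, the lid subunit with the lowest level, had 7.87, 8.36 and 9.29 FPKM in untreated and 9.36, 8.02 and 8.45 in bezafibrate libraries. Those groups overlapped, with a difference of 0.02 (SE 0.13).

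The 3 chaperones of base assembly bind the ATPases while the ring is built and are absent from the finished proteasome. They were the least abundant list, and their differences were all above 0, with a median of 0.12. Psmd5 had the largest difference of the 40 genes, 0.27 (SE 0.16). It stood at 2.68, 2.61 and 3.55 FPKM in untreated and 3.84, 3.99 and 3.43 in bezafibrate libraries, and only untreated M_1 reached the bezafibrate range. Its unadjusted p in limma was 0.121, and the adjusted p 0.999. Psmd9 was 1.91, 2.31 and 1.37 FPKM in untreated and 1.79, 2.28 and 2.19 in bezafibrate libraries, a difference of 0.12 (SE 0.19). Of the Psmd9 exon bases, 25.5% overlap Gm26745 on the opposite strand, and no source used here says whether counting used strand. Psmd10, also known as gankyrin, was 7.99, 5.88 and 4.66 FPKM in untreated and 5.71, 5.25 and 7.97 in bezafibrate libraries. Untreated F_1 and bezafibrate M_2 were its high libraries and the difference was 0.03 (SE 0.22).

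The alternative activators open the core without the 19S particle and do not bind ubiquitin. Their 4 differences had a median of 0.07, 3 above and 1 below 0. Psme1 and Psme2 form the interferon-inducible activator of the cytoplasm. Psme1 stood at 37.5, 36.4 and 39.6 FPKM in untreated and 40.3, 31.9 and 42.3 in bezafibrate libraries. The bezafibrate males were the lowest and the highest library, and the difference was 0.0038 (SE 0.15). Psme3, the nuclear activator, had 12.7, 14.4 and 18.8 FPKM in untreated and 18.6, 16.6 and 17.1 in bezafibrate libraries, a difference of 0.19 (SE 0.17). Psme4, a large activator linked to histone degradation, had the lowest difference of the list, -0.19 (SE 0.17). Its values were 7.66, 8.34 and 9.55 FPKM in untreated and 9.13, 7.13 and 6.05 in bezafibrate libraries. For both Psme3 and Psme4 untreated M_1 was the highest untreated and bezafibrate F_1 the highest bezafibrate library. Leaving out 1 library moved Psme3 to 0.075 (without untreated F_1) and 0.34 (without untreated M_1). It moved Psme4 to -0.064 (without bezafibrate M_2), -0.11 (without untreated M_1) and -0.33 (without bezafibrate F_1).

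Psme2 was 9.70, 11.8 and 11.8 FPKM in untreated and 13.6, 11.4 and 11.9 in bezafibrate libraries, with a difference of 0.14 (SE 0.14). These values depend on how reads shared with a near-identical gene were treated, which no source used here states. Psme2 lies at chr14:55587441-55591113 on the minus strand, and its retrotransposed copy Psme2b at chr11:48945354-48946190, also on the minus strand. In the GENCODE transcripts their coding sequences are 717 bases each and share 712 (99.3%). Of the 75-base stretches, the length of a read, in the principal (main) transcript of Psme2, 51.7% also occur in Psme2b. The stretch of 90 bases from coding position 454 to 543, shown because it holds 3 of the 5 differences, gives those 3 in capitals.
Psme2: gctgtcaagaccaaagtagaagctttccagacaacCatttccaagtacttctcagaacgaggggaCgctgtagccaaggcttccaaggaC
Psme2b: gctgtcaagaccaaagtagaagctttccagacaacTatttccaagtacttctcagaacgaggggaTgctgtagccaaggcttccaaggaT
Of the reads counted for the pair, 47.9% were on Psme2b. Summed over the pair, the mean level was 37.2 ± 1.53 RPM without and 42.0 ± 4.58 with bezafibrate (SD, n = 3 each). RPM here are reads scaled by the size used in the FPKM, not by the recovered reads, and without gene length. The 6 sums were 38.8, 36.9 and 35.8 in untreated and 43.3, 37.0 and 45.9 in bezafibrate libraries. Under this scaling the groups overlapped for the pair as they did for Psme2 alone. Divided by the recovered reads instead, every bezafibrate sum of the pair lay above the untreated ones, narrowly. With limma-voom, which scales to recovered reads, the median difference of all genes was 0.098. How many of all genes separate under that scaling was not counted.

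Psma3, an alpha subunit, shares 21.3% of the 75-base stretches of its principal transcript with Gm13835, a processed pseudogene at chr6:31141979-31142663. The deposited table gives this pseudogene 36.7 to 47.1 FPKM, above the 14.0 of Psma3 itself, and it held 34.1% of the reads of the pair. Psma3 with its pseudogene came to 73.0, 79.7 and 84.9 RPM in untreated and 86.6, 82.3 and 91.8 in bezafibrate libraries. These sums overlapped between the groups, at 79.2 ± 5.98 and 86.9 ± 4.75 (SD, n = 3 each). Divided by the recovered reads instead, the bezafibrate sums all lay above the untreated ones. With limma-voom, which uses that scaling, the median difference of all genes was itself 0.098. The share of all genes that separate under it was not counted. Of the 41 genes, 26 have no 75-base stretch of their principal transcript in the transcripts of another gene. Exons outside the principal transcript were not searched, and Psmd9, among the 26, overlaps Gm26745 in 25.5% of its exon bases. Stretches shared at over 20% were also seen for Psma5 with Gm8394 and Gm12989 and for Psmb3 with AC114990.1. The same held for Psmb5 with the pseudogene Gm3375 (35.8%) and for Psmb7 with Nek6, which it overlaps in the genome (24.1%). The levels of these genes are uncertain to the extent that reads could be assigned either way.

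**Figure D3:**
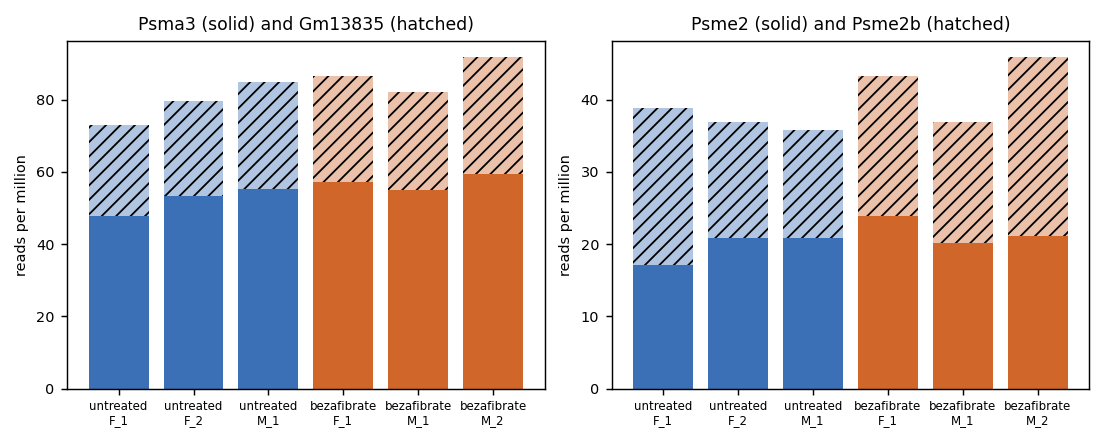
RPM of Psma3 and Psme2 (solid) stacked with those of their copies Gm13835 and Psme2b (hatched) in each library, on axes that start at 0. The copies took 34.1% and 47.9% of the reads of their pair. With the size used for scaling in the FPKM, the summed bars of the 2 diets overlap in both panels.

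Core and regulatory particle were compared library by library, as the mean log2(FPKM + 1) of the 16 tested core genes and of the 17 regulatory genes. The core mean was 4.54, 4.55 and 4.67 for the untreated and 4.57, 4.45 and 4.70 for the bezafibrate libraries. The 19S mean was 4.33, 4.41 and 4.51 in untreated and 4.44, 4.37 and 4.43 in bezafibrate libraries. The core was lowest in bezafibrate M_1 and highest in bezafibrate M_2, and the 19S lowest in untreated F_1 and highest in untreated M_1, so that the diets overlapped for both. Core minus 19S was 0.21, 0.14 and 0.15 in untreated and 0.12, 0.08 and 0.26 in bezafibrate libraries. The group means of that difference, 0.17 ± 0.04 and 0.16 ± 0.09 (SD, n = 3 each), were closer than the spread within either group. By gene, the median difference between the diets was 0.0015 for the core (8 above, 8 below 0) and 0.0017 for the 19S (9 above, 8 below). Rescaled to TPM, both medians were 0.12, with 13 of 16 and 14 of 17 above 0. Without bezafibrate M_2 the core median minus the 19S median was -0.12, against -0.00018 with it.

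**Figure D4:**
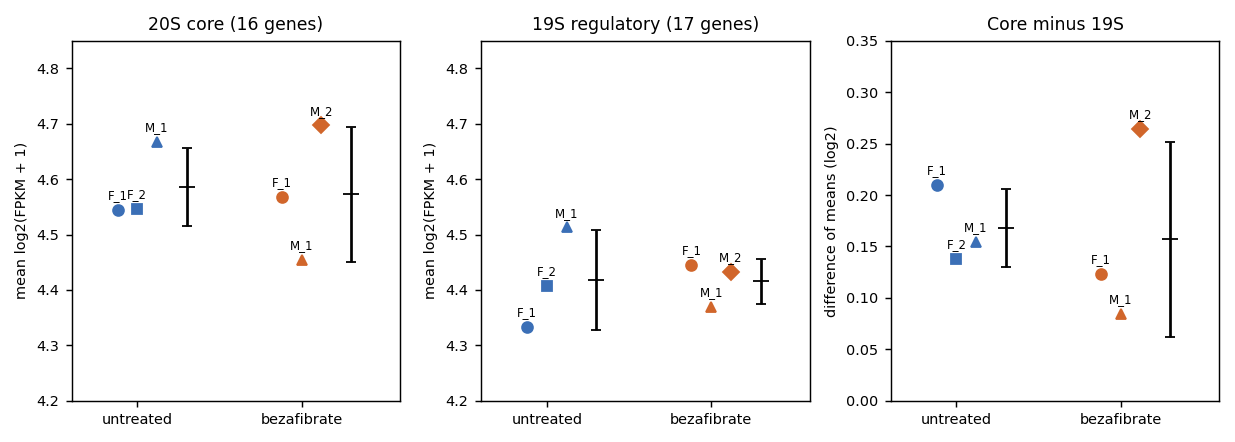
Mean log2(FPKM + 1) over the 16 core genes (left) and the 17 regulatory genes (middle), and their difference (right), with a point for each library and the group mean ± SD (n = 3) beside the points. The diets overlap in all 3 panels, and bezafibrate M_2 has the largest core minus 19S difference, 0.26.

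High and low values were shared unevenly among the libraries. Untreated M_1 was the highest of the 6 for 13 of 40 proteasome genes (and for 22.4% of all genes tested), bezafibrate M_2 for 10 (19.2%) and bezafibrate F_1 for 9 (16.4%). Bezafibrate M_1 was the lowest for 13 (17.3% of all genes) and untreated F_1 for 10 (15.8%). Bezafibrate M_1 also had the lowest composition ratio and untreated M_1 the highest, and the part of that ratio in these counts was not tested. Untreated M_1 and bezafibrate F_1 were together the highest of their groups for 10 genes (25.0%, against 22.2% of all genes), among them Psmc1, Psmc2, Psmb7, Psmd11, Psme3 and Psme4. They were together the lowest for 3 (7.50%, against 19.9%), which were Psmd7, Psmd9 and Psmb10. With both left out, 24 of 40 differences were above 0, the median was 0.02 and 0 genes were called.

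Levels per gene depend on the length used. The deposited length of 40 of the 41 genes equals the union of all their annotated exons in GENCODE, on average longer than the main transcript: the ratio to the principal transcript had a median of 1.64 and reached 3.36 for Psma7. Scaled to the principal transcript, a choice made after the values were seen, Psma7 moved from rank 15 to rank 3 of the 41 genes, Psmb3 from 17 to 6 and Psmb6 from 11 to 4, while Psmc5 moved from 8 to 20 and Psmb5 from 9 to 21. Psma6 was first under both lengths. The median level rose from 21.7 to 45.7 FPKM for the core and from 22.0 to 38.8 for the 19S. All reads counted over the union of exons were kept, so each level was only multiplied by its length ratio and none could fall. Among the 15 core genes other than Psma8 and Psmb11, the fold between the highest and the lowest level fell from 5.42 to 4.55, and among the 17 regulatory genes from 5.26 to 3.22. The constitutive core subunits are present in equal numbers in the particle, while their mRNA levels differed under both lengths. A change of length does not alter the comparison of a gene between libraries.

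**Figure D5:**
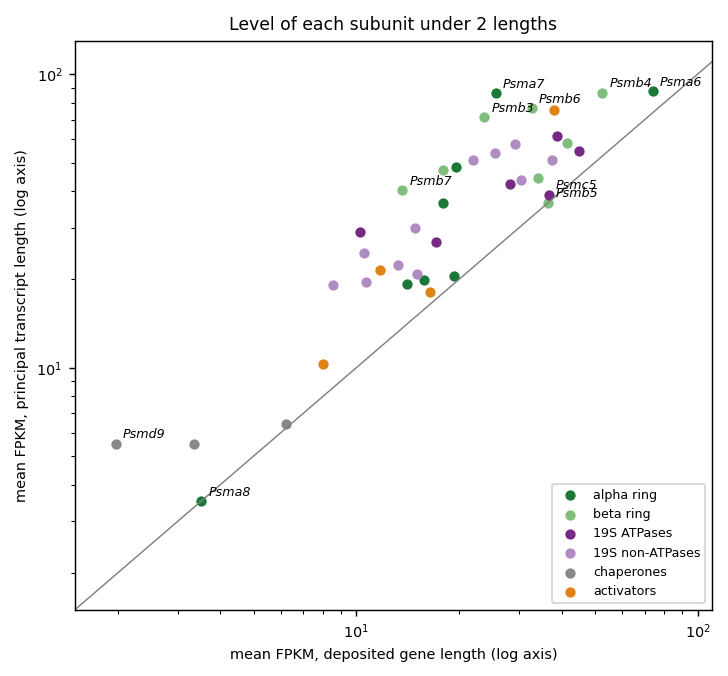
Mean FPKM over the 6 libraries of each proteasome gene with the deposited length (horizontal, log axis) against the same scaled to the principal transcript (vertical, log axis), coloured by particle, with the line of equality. Psma7, Psmb3 and Psmb6 lie far above the line, Psmb5 and Psmc5 on or close to it, and the chaperones and Psma8 at the bottom under both lengths.

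The rest of the pathway was read from a list of 40 names that also holds Psmb8 and Psmb9. Of these names 39 were found, Psmg3 failed the filter, and besides Psmb8 and Psmb9 the list gave 36 tested genes. By limma 0 of the 36 were called (0.00887% of all genes tested), and 1 had an unadjusted p under 0.05 (4.19% of all genes). Of the 36, 11 (30.6%) were above and 25 below 0, against 48.2% above 0 over all genes and 42.6% over those with a mean of at least 5 FPKM. Their median of -0.028 was close to the -0.032 of the latter. The diets did not overlap for 5 of 36, against 8.42% of all genes: Psmg4, Nsfl1c and Ube3c were higher, and Vcp and Nfe2l2 lower. Nfe2l2, which encodes NRF2, a relative of NRF1, differed by -0.31 (SE 0.15). Nfe2l1, the transcription factor that raises subunit genes, stood at 62.0, 74.6 and 67.0 FPKM in untreated and 71.7, 63.8 and 60.8 in bezafibrate libraries. The groups overlapped, and the difference was -0.05 (SE 0.14). Mafk encodes a small Maf protein that pairs with NRF1 and NRF2 on the response element, and it is the gene with the unadjusted p under 0.05. It was 107, 130 and 118 FPKM in untreated and 108, 62.3 and 61.0 in bezafibrate libraries. The bezafibrate males were low while bezafibrate F_1 was within the untreated range, and the difference of -0.66 (SE 0.23) had an unadjusted p of 0.023 and an adjusted p of 0.999 in limma. Left out in turn, the libraries gave Mafk differences from -0.93 to -0.52, and with the composition ratio as a covariate it was -0.40. Bezafibrate M_1 and M_2 also had the lowest composition ratios (0.888 and 0.897) and the lowest endothelial marker sums (1953 and 1842 FPKM). Pecam1, Flt1 and Cldn5, the largest marker, were lowest in these libraries. Slco1c1 was not (380 and 376 FPKM, against 322 in bezafibrate F_1), and Cdh5 in bezafibrate M_1 lay above untreated F_1. The part of the ratios and sums in the Mafk difference was not tested beyond that covariate.

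Among the assembly factors, Psmg4, a chaperone of the alpha ring, had the largest difference, 0.32 (SE 0.14). Its values did not overlap, with 10.0, 10.6 and 11.5 FPKM in untreated and 13.1, 12.5 and 15.2 in bezafibrate libraries, and its adjusted p in limma was 0.999. Among deubiquitinases and shuttle factors, Ube3c, a ligase on the 19S particle that is listed with them, differed by 0.28 (SE 0.14). Uchl5, which trims ubiquitin chains on the 19S particle, was 5.12, 5.19 and 4.13 FPKM in untreated and 3.25, 4.54 and 3.35 in bezafibrate libraries. Bezafibrate M_1 lay within the untreated range, and the difference was -0.31 (SE 0.17).

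The p97 segregase extracts ubiquitinated proteins and hands them to the proteasome. Vcp, which encodes p97 itself, had 41.2, 40.0 and 42.2 FPKM in untreated and 37.1, 38.7 and 33.3 in bezafibrate libraries. Every Vcp value under bezafibrate was lower, with a difference of -0.18 (SE 0.13). Its cofactor gene Nsfl1c had 13.4, 14.3 and 13.3 FPKM in untreated and 15.1, 14.7 and 19.1 in bezafibrate libraries. Every Nsfl1c value under bezafibrate was higher, and the difference was 0.23 (SE 0.14), or 0.12 without bezafibrate M_2. Ufd1, another p97 cofactor, lies in the 22q11.2 interval and so is present in 1 copy in every library. It stood at 5.43, 8.82 and 7.79 FPKM in untreated and 11.198, 5.72 and 5.28 in bezafibrate libraries. Bezafibrate F_1 was the highest and bezafibrate M_2 the lowest, with a difference of -0.04 (SE 0.28) that changed side under other scalings.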

How the data were processed

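RNA-seq was analysed in 6 libraries, 3 per diet. Per the labels' protocols, cDNA was made with SMART-Seq HT, indexed with Nextera XT, read single-end at 75 bases, de-duplicated and mapped with Salmon. The submitters' processing notes name GRCm38, while the Salmon version, annotation and strand setting are not stated in these sources. The authors deposited 1 table of FPKM per gene with gene positions and lengths, without a statement on its normalisation among the sources used here. FPKM times length fell on whole multiples of 1 step per library for 100% of values at a tolerance of 0.01 reads, which gave the recovered reads. Whether reads that fit several genes were divided, assigned to a single gene or dropped is not stated in these sources. Depth and read counts cover counting error only. The untreated male library was matched to its column by the description in its label, since the title differs in number.

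Members and gene lists were chosen with earlier results of these data known. Genes with at least 1 FPKM in at least 3 libraries were fitted as log2(FPKM + 1) with limma 3.58.1 in R 4.3.3 (lmFit, eBayes with trend, two-sided), without covariates, and p was adjusted by Benjamini-Hochberg over all 11277 genes. The pseudocount shrinks differences of low genes. Differences are given as log2, bezafibrate minus untreated, with the SE of the fit. The fit was tested on simulated data. Replicates are pools of separate animals, so a p-value reflects the spread of the pools, which includes that between the sexes. The diets hold female and male pools in unequal numbers, so sex is partly mixed into the difference. The named genes are the 3 catalytic subunits, the extremes of difference and level in each list, genes without overlap or under the filter, Psmb10, Psme1 and Psme2, and in the pathway lists Nfe2l1, Ufd1 and the largest difference per list. The result for 1 of these genes is not reported here. Genes named only for shared sequence or rank, for library patterns or, in the pathway lists, for absence of overlap, were chosen after their values were seen. The alternatives were 18 refits with another pseudocount, filter, scaling, covariate, weighting, model or set of libraries. Lengths and overlaps came from GENCODE M21, and promoters from RefSeq (GRCm38.p6), with Python 3.11.15 and Biopython 1.88. Read windows were taken from the principal transcript of each gene and searched in all GENCODE transcripts.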

Additional observations from a re-analysis of the deposited data

How the results depend on the processing

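In 18 alternative fits, 0 proteasome genes were called in each. The count over all genes tested was 1 in the fit reported. It was 0 with limma-voom, with the replicate block, and with untreated M_1 and bezafibrate F_1 both left out. It was 0 to 3 when each library was left out in turn, with 3 in the fit without bezafibrate F_1 and 0 in those without bezafibrate M_1 or M_2. For the names shared across diets (F_1, M_1), the deviations from the group means had correlations of -0.36 and -0.30. No source used here says that these libraries were paired, and the untreated male has another number in its column name. Whether they were paired cannot be told from these correlations. With the replicate block, which leaves 1 residual degree of freedom, the core median minus the 19S median was -0.085, 17 of 40 genes were above 0 and 0 of 40 intervals lay within 1.5-fold, as for 0 of all genes. In the other fits 27 to 37 did. The 19S median was 0.078 with the composition ratio as a covariate, 0.11 with limma-voom and 0.12 in TPM, and the core median 0.11 and 0.12 in the last 2. Limma-voom moved the median of all genes to 0.098, with 32 of 40 proteasome genes above 0. Leaving out each library gave -0.12 to 0.030 for core minus 19S, -0.092 to 0.055 for the core, -0.038 to 0.027 for the 19S and 0.016 to 0.16 for the activators.

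Differences near 0 changed sign, and the cause was not tested. With array weights these were Psma6 (-0.11), Psmb6 (-0.010), Psmb9 (0.086), Psmd11 (-0.0025) and Psme1 (-0.031). With the composition ratio as a covariate they were Nfe2l1 (0.029), Psmb10 (-0.16), Psmb7 (0.081), Psmd10 (-0.13) and Ufd1 (0.31). With limma-voom they were Nfe2l1 (0.059), Psmb7 (0.10), Psmb9 (0.017), Psmc6 (0.045) and Ufd1 (0.076). Quantile scaling turned Nfe2l1 (0.037) and Psmb7 (0.022). The replicate block turned Nfe2l1 (0.069), Psma6 (-0.11), Psmb10 (-0.051), Psmb5 (-0.020), Psmb7 (1.1e-05), Psmc2 (-0.0018), Psmd10 (-0.14), Psme1 (-0.10) and Ufd1 (0.27). TPM turned Nfe2l1 (0.066), Psmb7 (0.11), Psmb9 (0.037), Psmc6 (0.057), Psmd7 (0.0066) and Ufd1 (0.069). Sex as a covariate turned Psma6 (-0.014), Psmb7 (0.0065) and Ufd1 (0.091). With untreated M_1 and bezafibrate F_1 both left out they were Psmb5 (-0.066), Psmb6 (-0.048), Psmb9 (0.073), Psmc6 (0.0048), Psmd10 (-0.071) and Psme1 (-0.0066).

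Leaving out each library in turn gave -0.12 to 0.018 for Nfe2l1, -0.15 to 0.24 for Psma6, -0.049 to 0.21 for Psmb10, -0.070 to 0.11 for Psmb5, -0.015 to 0.12 for Psmb6, -0.070 to 0.051 for Psmb7, -0.24 to 0.17 for Psmb9 and -0.016 to 0.091 for Psmc1. It gave -0.025 to 0.21 for Psmc2, -0.17 to 0.012 for Psmc6, -0.12 to 0.21 for Psmd10, -0.039 to 0.074 for Psmd11, -0.011 to 0.23 for Psmd9, -0.074 to 0.12 for Psme1 and -0.34 to 0.14 for Ufd1. The genes that kept their sign ran from -0.93 to -0.52 for Mafk, 0.12 to 0.29 for Nsfl1c, -0.29 to -0.13 for Psma4, -0.18 to -0.14 for Psma7, 0.097 to 0.29 for Psma8, -0.21 to -0.027 for Psmb4, 0.070 to 0.21 for Psmc4, 0.048 to 0.13 for Psmc5, -0.24 to -0.13 for Psmd12, -0.20 to -0.075 for Psmd2, 0.21 to 0.38 for Psmd5, 0.12 to 0.34 for Psmd6, -0.13 to -0.063 for Psmd7, 0.051 to 0.19 for Psme2, 0.075 to 0.34 for Psme3, -0.33 to -0.064 for Psme4, 0.24 to 0.37 for Psmg4 and -0.43 to -0.24 for Uchl5. With 680 reads for Psma8 and 28 for Psmb11 over all libraries, depth limits what could be detected for these genes.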
